A study of Mus musculus with 20 samples.

Results

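Oxidative phosphorylation is the process by which mitochondria pass electrons along a chain of membrane complexes and use the resulting proton gradient to make ATP. Genes of this pathway were followed in TCRαβ+CD8αα+ intraepithelial lymphocytes (IELs), T cells that lie within the gut epithelium, here of the mouse small intestine. Members were taken by gene symbol: those starting with Nduf (complex I and its assembly factors), Sdha to Sdhd (complex II), Uqcr (complex III), Cox4 to Cox8 (complex IV) or Atp5 (complex V, the ATP synthase), plus the protein genes of mitochondrial DNA. The rule found 124 of the 25933 distinct symbols in the series. Of these, 106 were in the table of sorted reporter cells, 107 in the Bcl6 table, 94 in the Prdm1 table and 124 in the Tcf7 table, and 94 were in every table. Leaving out members with a pseudogene symbol (-ps), 56 belonged to complex I, 8 to complex II, 9 to complex III, 19 to complex IV and 19 to complex V. The remaining 13 had a pseudogene symbol, and 13 of the members were mitochondrially encoded proteins. The counts of complexes I and IV still hold 5 gene copies. Of these, the GENCODE annotation lists Ndufa11b, Ndufb4c, Ndufs6b and Cox6c2 as processed pseudogenes. The Tcf7 table lists those 13 under their RefSeq symbols without the mt- prefix, and they were matched by their mitochondrial location. The Prdm1 table had none of them.

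The bulk RNA-seq libraries, all from steady-state mice, formed 4 comparisons. From Bcl6-RFP/RFP mice, in which a red fluorescent protein reports Bcl6, small intestinal cells positive for RFP and CD160 (RFP+) gave 3 libraries and cells negative for both (RFP−) gave 3. TCRαβ+CD8αα+ IELs of Bcl6fl/fl Cd8cre, Prdm1fl/fl Cd8cre and Tcf7fl/fl Cd8cre mice gave 2 knockout (KO) libraries each, set against 2 libraries each of Bcl6fl/fl, Prdm1fl/fl and Tcf7fl/fl littermates. Cd8cre, a Cre recombinase driven by Cd8 regulatory sequence, is named in every KO genotype and in no littermate genotype, so an effect of Cre itself cannot be told apart from loss of the gene. Ages and pooling of animals are not given, and nothing states that replicates came from separate animals, so p-values measure only the spread between these libraries. A further pair of libraries, labelled LI, was put in no group by the labels.

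The respiratory chain works as a relay. Complex I takes electrons from NADH and complex II from succinate, ubiquinone carries them to complex III, cytochrome c carries them on to complex IV, and complex IV hands them to oxygen. Complexes I, III, IV and V are built from proteins of both genomes, because mitochondrial DNA encodes a few core subunits and the nucleus encodes the rest, whereas complex II is wholly nuclear. Small accessory subunits surround the catalytic cores, and some of them, such as those of the Cox6a, Cox6b and Cox7a families, exist as alternative isoforms that mammals use in different tissues.

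Depth was 14.5 to 16.9 M (mega) reads in RFP+ libraries, against 16.5 to 17.4 M in RFP− libraries. It was 22.5 and 22.7 M in Bcl6 KO and 23 and 22.1 M in littermates, 30.1 to 31.4 M in Prdm1 KO and 33.8 to 38.4 M in littermates, and 45.7 to 48.2 M in Tcf7 KO and 41 to 47.5 M in littermates. The sorted cells had the defining transcripts of their label: Cd8a stood at 543 to 612 FPKM in RFP+ libraries, against 871 to 946 in RFP− libraries, Cd8b1 at 0.72 to 1.16 in RFP+ and 0.777 to 1.27 in RFP− libraries, and Cd4 at no more than 0.0881 in either. Of the deleted genes, Prdm1 fell by 3.53 and Tcf7 by 0.98 on the log2 scale in their own KO. Bcl6 was at 0.55 and 0.638 FPKM in Bcl6 KO libraries and 0.772 and 0.735 FPKM in littermate libraries, under the filter of the test, so its level checks little.

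Promoter sequence of a few members that stood out in RFP+ against RFP− cells is shown first, to set beside their values. Each is the 250 bases before the RefSeq start on build GRCm38.p6, written 5′ to 3′ on the gene's own strand. Capitals mark the NRF1 core CGCATGCG, a palindrome and therefore the same on both strands, which is bound by nuclear respiratory factor 1, a regulator of many respiratory chain genes. Cox7a2 was the complex IV subunit with the most positive difference, on chr9:79759854-79760103 (minus strand).
Cox7a2: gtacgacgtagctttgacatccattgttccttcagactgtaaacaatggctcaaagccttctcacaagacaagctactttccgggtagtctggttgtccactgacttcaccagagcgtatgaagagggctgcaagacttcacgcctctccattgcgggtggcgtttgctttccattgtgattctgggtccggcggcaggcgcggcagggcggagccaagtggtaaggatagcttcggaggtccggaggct
Ndufaf4, a complex I assembly factor that was higher, lies at chr4:24897833-24898082 (plus strand), and its NRF1 core starts 112 bases before the start site.
Ndufaf4: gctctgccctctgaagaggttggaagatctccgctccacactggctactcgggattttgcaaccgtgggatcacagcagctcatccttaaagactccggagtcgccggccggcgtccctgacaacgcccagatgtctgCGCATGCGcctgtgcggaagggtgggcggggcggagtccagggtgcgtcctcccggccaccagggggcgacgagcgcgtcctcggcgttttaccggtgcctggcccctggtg
Ndufv3, a complex I subunit that was lower, lies at chr17:31519865-31520114 (plus strand).
Ndufv3: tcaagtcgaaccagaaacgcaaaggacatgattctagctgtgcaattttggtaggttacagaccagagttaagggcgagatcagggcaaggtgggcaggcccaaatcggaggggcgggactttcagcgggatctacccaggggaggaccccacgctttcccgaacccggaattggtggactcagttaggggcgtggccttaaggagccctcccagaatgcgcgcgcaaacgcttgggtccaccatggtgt
Cox7b, a complex IV subunit that was lower, lies at chrX:106015450-106015699 (plus strand).
Cox7b: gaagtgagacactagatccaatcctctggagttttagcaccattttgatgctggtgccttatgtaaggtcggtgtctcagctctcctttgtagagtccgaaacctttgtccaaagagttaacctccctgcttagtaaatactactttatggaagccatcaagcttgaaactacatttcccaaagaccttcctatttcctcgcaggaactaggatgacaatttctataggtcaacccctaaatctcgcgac

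In windows running from 250 bases before to 50 after the start, 80 members had a RefSeq sequence, and the NRF1 core stood in 11 of them (13.8%), against 2.07% of 27025 genes and 4.95% of the 7905 matched genes tested in sorted cells. The ETS or GABP core CCGGAAG, searched like the others on both strands, stood in 22 members (27.5%), against 9.93% of all genes and 23.3% of tested genes. For the YY1 core AAGATGG the counts were 12 members (15%), 7.28% of all genes and 9.26% of tested genes, and for the ERR core AAGGTCA 8 members (10%), 5.38% and 3.8%. Among members with a sequence that rose in RFP+ cells the NRF1 core was in 1 of 3 and the ETS core in 1 of 3. Among those that fell, the NRF1 core was in 4 of 19 and the ETS core in 11 of 19, and among members not past the threshold in 6 of 55 and 10 of 55. A match is a string of letters and not a measured binding site. Cox6a2, Cox6c, Cox4i1 and Ndufaf6 had no entry.

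In RFP+ cells, set against RFP− cells, the calls of nuclear members were mostly lower and those of mitochondrially encoded genes all higher, although with equal library totals nuclear calls were mostly higher as well. As deposited, 4 of the 93 nuclear members tested rose and 25 fell, while 6 of the 12 mitochondrially encoded genes rose and none fell. Over all 105 members tested this made 10 higher (9.52%) and 25 lower (23.8%), against 16.4% of 9717 genes called higher and 21.6% called lower, so the share of lower calls was close to the background and that of higher calls below it (limma on log2(FPKM + 1), Benjamini-Hochberg adjusted p under 0.05 over all genes tested, two-sided). The median log2 fold change, RFP+ minus RFP−, was −0.12 for nuclear members, 0.30 for mitochondrially encoded genes and −0.03 for all genes tested. All 12 mitochondrially encoded genes lay above 0, and 70 of the 93 nuclear members lay below it, as did 5269 of all 9717 genes. Set against the median gene instead of 0, 66 nuclear members lay below and 27 above. Because these are bulk samples, fewer cells of a type and less RNA per cell cannot be told apart.

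The nuclear direction depended on how libraries were scaled. Gzma and Gzmb, the granzyme genes, took 0.0793 to 0.18% of the FPKM total in RFP+ libraries, against 7.32 to 8.27% in RFP− libraries, and scaling all libraries to 1 total shifted the median of all genes by 0.14. The nuclear median then became 0.03 with 20 members higher and 7 lower, against a background of 34% of genes called higher and 12.1% lower, and the split over all members became 31 higher and 7 lower. Relative to the median gene, nuclear members were at −0.10 as deposited and −0.09 with equal totals, and mitochondrially encoded genes at 0.33 and 0.34. With quantile normalization the counts were 8 nuclear members higher and 18 lower, and after centring on well expressed genes 9 and 19. Over all 9717 genes they were 2014 higher and 1747 lower with quantile normalization, and 2200 and 1595 after centring. Under these 3 scalings, 9 of the 10 higher calls were made each time (mt-Nd6 was not), but only 7 of the 25 lower calls: Atp5k, Cox5a, Cox5b-ps, Cox6a2, Cox6c, Ndufaf8 and Ndufv3. The number of lower nuclear calls was 13 without RFP+ replicate 1, 16 without RFP+ replicate 2 and 14 without RFP− replicate 2. It was 20 without RFP+ replicate 3, 17 without RFP− replicate 1 and 30 without RFP− replicate 3. Over all genes the lower calls in these fits were, in the same order, 1531, 1677, 1685, 1959, 1866 and 1773. With every library they were 2098.

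**Figure D1:**
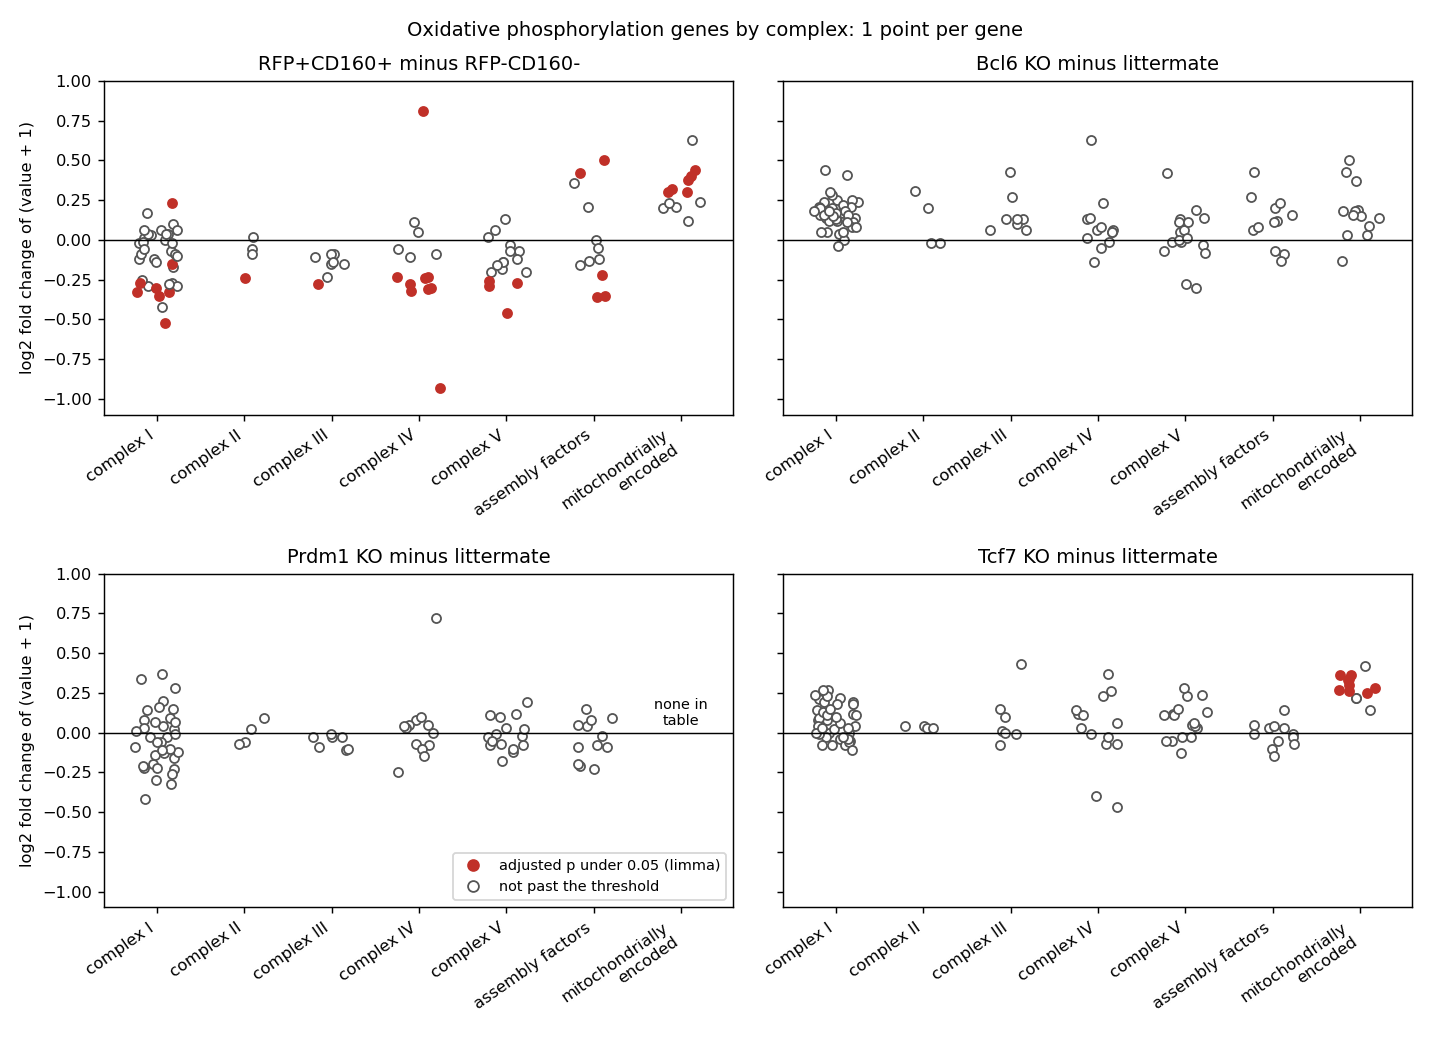
Each point is 1 gene, with log2 fold change of (value + 1) on the vertical axis and complex or class on the horizontal. The 4 panels show RFP+CD160+ minus RFP-CD160- cells and each KO minus its littermates. Filled points passed an adjusted p of 0.05 (limma). Members with a -ps pseudogene symbol are left out, and gene copies are drawn with their complex. As deposited, filled points in sorted cells lie mostly below 0 for complex IV subunits, with Cox7a2 at 0.81, and above 0 for mitochondrially encoded genes. With library totals made equal, complex IV has 3 genes higher and 3 lower, where 34% of all genes were higher and 12.1% lower.

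**Figure D2:**
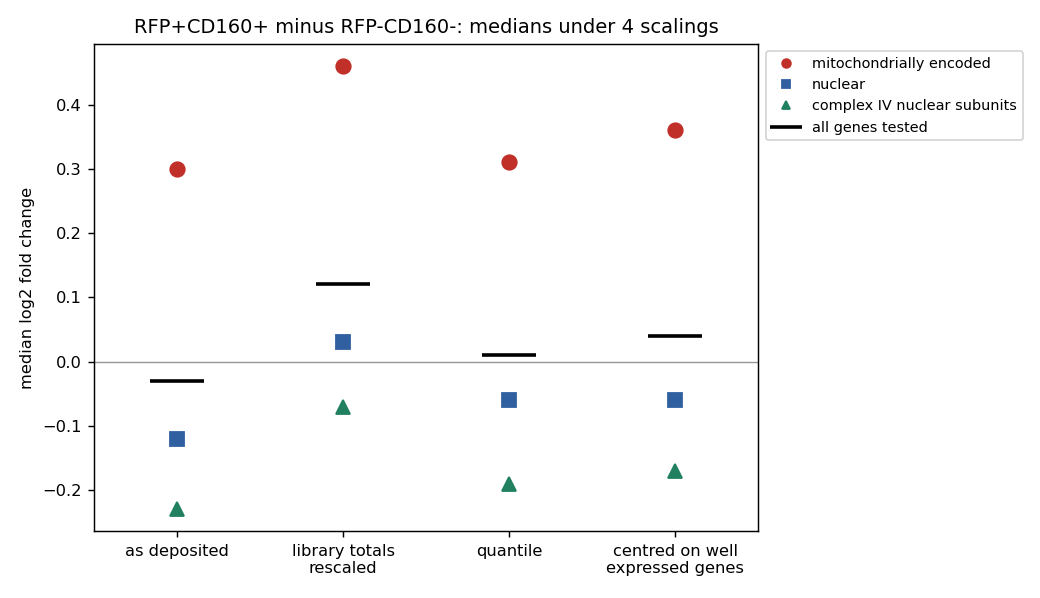
Median log2 fold change, RFP+CD160+ minus RFP-CD160- cells, under 4 scalings, for mitochondrially encoded genes, nuclear members, complex IV subunits and all genes tested. Mitochondrially encoded genes stayed above the median of all genes and complex IV subunits below it under each scaling, while the nuclear median crossed 0 with equal library totals.

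Complex IV, cytochrome c oxidase, held both the most positive and the most negative nuclear difference. Of its 14 tested subunits 1 rose (7.14%) and 8 fell (57.1%) as deposited, against 16.4% and 21.6% of all genes, with a median of −0.23. With equal library totals the median was −0.07, and 3 were higher and 3 lower, where 34% of all genes were higher and 12.1% lower. Relative to the median gene the complex IV median was −0.21 as deposited and −0.19 with equal totals. Cox7a2, which encodes the widely expressed isoform of a small accessory subunit, was the subunit that rose. It had 99.5, 95.2 and 107 FPKM in RFP+ libraries, against 56.3, 55.7 and 58.7 FPKM in RFP− libraries. The groups were far apart, with every RFP+ library above every RFP− library. The mean was 101 ± 6.17 FPKM in RFP+ and 56.9 ± 1.59 FPKM in RFP− libraries (SD, n = 3 each), a log2 fold change of 0.81 (SE 0.06, limma adjusted p = 2.6e-05). Cox7a2 lies on chr9:79755361-79759878 in GENCODE vM21 (GRCm38) and its exons overlap no other gene's. The call was made in all 14 alternatives run, where the fold change was at most 0.97.

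Cox6a2, known as the heart and skeletal muscle isoform of another small complex IV subunit, went the other way. It had 14.9, 19.1 and 18.1 FPKM in RFP+ libraries, against 29.7, 33.2 and 39.4 FPKM in RFP− libraries. No RFP+ library reached the lowest RFP− library, which gave a log2 fold change of −0.93 (SE 0.12, limma adjusted p = 5.6e-04), also called in all 14 alternatives. Its exons overlap those of Itgad on the opposite strand by 70 bases, and whether counting used strand is not given in the sources used here. Cox6a1, the ubiquitous isoform of the same subunit, was far more abundant, with 157, 153 and 157 FPKM in RFP+ libraries, against 191, 189 and 170 FPKM in RFP− libraries. It fell by less, with a log2 fold change of −0.23 (limma adjusted p = 0.016). The isoform pair thus moved in 1 direction but by different amounts, and the difference between the 2 genes was not tested.

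**Figure D3:**
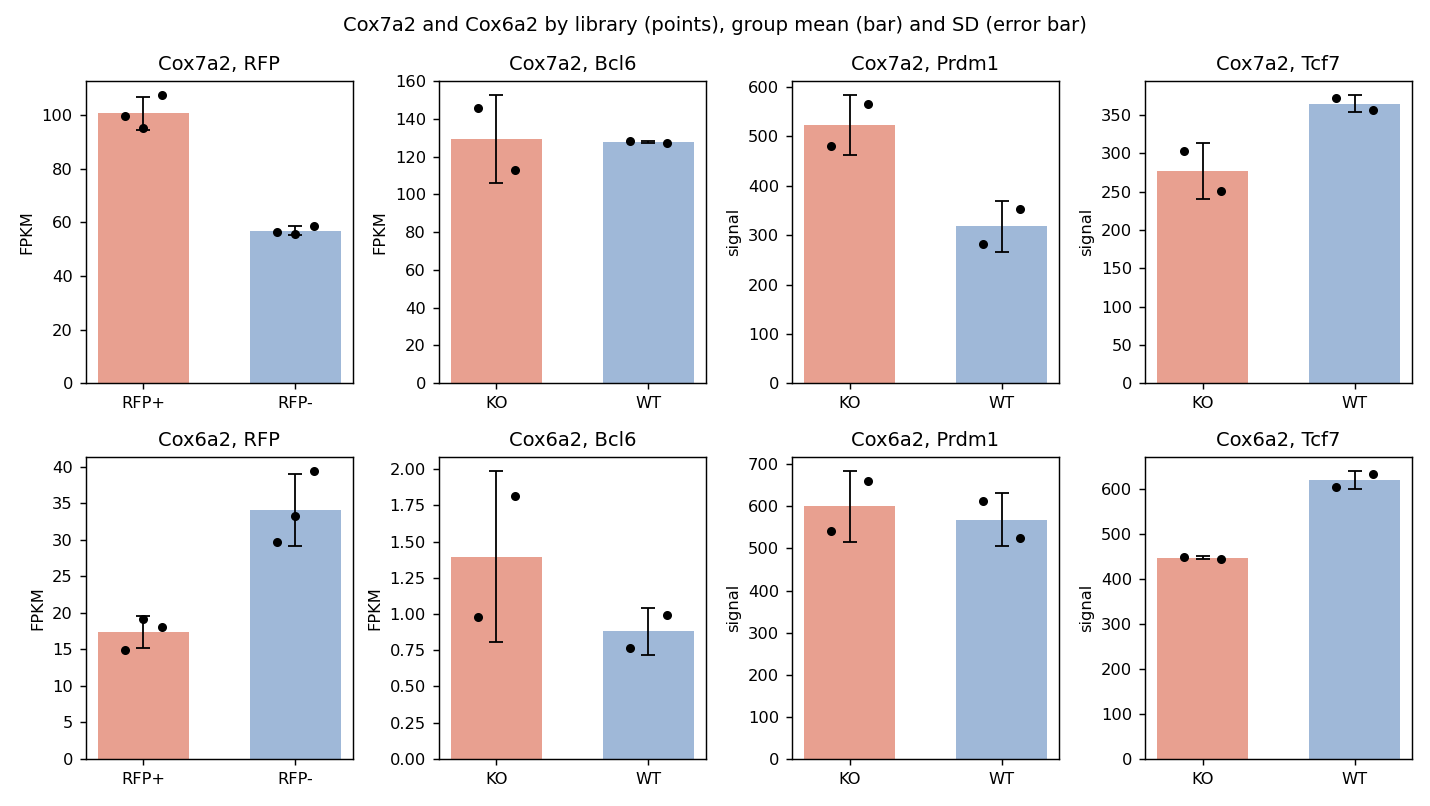
Cox7a2 (top) and Cox6a2 (bottom) in each library (points), with the group mean (bar) and SD (error bar), in FPKM for sorted cells and the Bcl6 experiment and in signal, reads divided by a size factor, for the Prdm1 and Tcf7 experiments. RFP+ and RFP- libraries do not overlap for either gene, and neither do Tcf7 KO and littermate libraries, although neither gene passed the threshold there.

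The remaining lower complex IV subunits differed by narrower margins. Cox6c, an accessory subunit, had 21.6, 21.3 and 23.3 FPKM in RFP+ libraries, against 29.1, 27.5 and 26.6 FPKM in RFP− libraries (log2 fold change −0.32, adjusted p = 0.0036). Cox5a, a subunit on the matrix side, had 16, 17.5 and 17.5 FPKM in RFP+ libraries, against 22.8, 20.6 and 20.6 FPKM in RFP− libraries (−0.31, adjusted p = 0.006). Both genes were separated between the groups and were called in all 14 alternatives. Cox6b1, a subunit facing the intermembrane space, had 79.3, 83.7 and 77.2 FPKM in RFP+ libraries, against 101, 101 and 91.3 FPKM in RFP− libraries (−0.28, adjusted p = 0.007). Cox7b, whose promoter is shown above, had 42.2, 37.5 and 35.9 FPKM in RFP+ libraries, against 48.6, 48.3 and 45.6 FPKM in RFP− libraries (−0.30, adjusted p = 0.0099). These 2 genes missed the threshold only when library totals were made equal. Cox4i1, the ubiquitous regulatory subunit, had 101, 97.7 and 104 FPKM in RFP+ libraries, against 130, 119 and 111 FPKM in RFP− libraries (−0.24, adjusted p = 0.021). Cox8a, a small membrane subunit, was the most abundant of the 14 at 263, 284 and 273 FPKM in RFP+ libraries, against 342, 335 and 289 FPKM in RFP− libraries (−0.23, adjusted p = 0.041), and kept its call in only 4 of the 14 alternatives. Cox4i1 and Cox8a had no overlap between groups as deposited, and all adjusted p-values here are limma's.

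Several isoforms and partners of complex IV did not pass the test. Cox7a1, the muscle isoform that pairs with Cox7a2, was low, at 2.25, 2.96 and 1.99 FPKM in RFP+ libraries, against 3.51, 2.24 and 2.15 FPKM in RFP− libraries, and the groups overlapped. Cox7a2l, which links complexes III and IV into supercomplexes, had 116, 118 and 120 FPKM in RFP+ libraries, against 122, 111 and 110 FPKM in RFP− libraries (log2 fold change 0.05, adjusted p = 0.54). Ndufa4, named for complex I but a subunit of complex IV, had 32.6, 31 and 33.8 FPKM in RFP+ libraries, against 30.2, 29.2 and 30.7 FPKM in RFP− libraries (0.11, adjusted p = 0.13). Cox6b2, the testis isoform, was at or below 0.641 FPKM in RFP+ libraries, against 1.2 FPKM in RFP− libraries and was not tested. Of the 3 genes with Cox7a symbols, Cox7a2 was the one past the threshold. Cox5b-ps, a Cox5b pseudogene, fell with Cox5b's own level not past the threshold: Cox5b-ps had 12.8, 12.7 and 12.6 FPKM in RFP+ libraries, against 19.7, 17.4 and 14.5 FPKM in RFP− libraries (−0.40, adjusted p = 0.014). Cox5b had 44.2, 39.1 and 45.9 FPKM in RFP+ libraries, against 55.2, 45.7 and 39.9 FPKM in RFP− libraries (−0.11, adjusted p = 0.47). Reads of such near-identical copies may be split between them, so both values are uncertain.

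Complex I, NADH dehydrogenase, is the largest complex, and its 37 tested nuclear subunits spread on both sides of 0. Those 37 include the gene copy Ndufb4c, at 2 to 9 reads per library, which was not called. There 1 rose (2.7%) and 7 fell (18.9%) as deposited, against 16.4% and 21.6% of all genes, with a median of −0.09. With equal library totals 9 were higher and 1 lower (median 0.06), where 34% of all genes were higher and 12.1% lower. Ndufs3, a core subunit of the arm that carries electrons, was the one that rose, with 21.5, 22.2 and 21.1 FPKM in RFP+ libraries, against 18.1, 19.5 and 17.1 FPKM in RFP− libraries (log2 fold change 0.23, limma adjusted p = 0.016). Ndufs3 exons overlap Kbtbd4 on the opposite strand by 88 bases. Ndufv3, an accessory subunit near the NADH binding site, fell, with 13.2, 13.4 and 13.5 FPKM in RFP+ libraries, against 17.9, 17 and 17.1 FPKM in RFP− libraries. Its 3 RFP+ values lay within 0.24 FPKM of each other, for a log2 fold change of −0.35 (SE 0.05, adjusted p = 9.0e-04), called in all 14 alternatives. Several other core subunits, which hold the flavin and iron-sulfur clusters, were near the median gene. Ndufs1, Ndufs8, Ndufv1 and Ndufv2 did not pass the threshold, with log2 fold changes from −0.10 to 0.06. Ndufs7 was lower by a log2 fold change of −0.15 (adjusted p = 0.036), and it was called in 3 of the 14 alternatives and changed sign under 1 scaling.

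Lower accessory subunits of complex I included members of its membrane arm and its matrix arm. Ndufa1, a small membrane subunit, had 45.7, 47.5 and 51 FPKM in RFP+ libraries, against 81.9, 77.2 and 52.8 FPKM in RFP− libraries (−0.52, SE 0.15, adjusted p = 0.025). RFP− replicate 3 lay close to the RFP+ libraries, and the call was made in 2 of the 6 fits that each left out 1 library. Ndufb7 had 8.24, 9.48 and 9.08 FPKM in RFP+ libraries, against 12.5, 11.2 and 10.8 FPKM in RFP− libraries (−0.33, adjusted p = 0.01). Ndufb9 had 10.1, 9.94 and 11.5 FPKM in RFP+ libraries, against 14.1, 12.5 and 13.8 FPKM in RFP− libraries (−0.33, adjusted p = 0.0095), and it shares 201 exonic bases with Gm49356 on the same strand. Both Ndufb7 and Ndufb9, subunits of the membrane arm, missed the threshold in 1 of 14 alternatives. Ndufs4, a matrix arm subunit needed for a stable complex I, had 8.95, 9.88 and 9.99 FPKM in RFP+ libraries, against 12.6, 11.7 and 11.1 FPKM in RFP− libraries (−0.27, adjusted p = 0.014). Ndufs6, a zinc-binding subunit of the same arm, had 21.4, 18.6 and 20.4 FPKM in RFP+ libraries, against 28, 25 and 22.2 FPKM in RFP− libraries (−0.30, adjusted p = 0.031). Neither gene's groups overlapped, and the limma call of Ndufs6 was made in 8 of 14 alternatives.

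Of the 12 assembly factors caught by the symbol rule, 2 rose (16.7%) and 3 fell (25%) as deposited, against 16.4% and 21.6% of all genes. Their median was −0.08. With equal library totals 3 were higher and 1 lower (median 0.06), where 34% of all genes were higher and 12.1% lower. After centring the counts were again 3 and 1. Ndufaf6, needed to build the part of complex I that surrounds the mitochondrially encoded subunit ND1, had 4.49, 5.18 and 6.28 FPKM in RFP+ libraries, against 3.33, 3.74 and 3.26 FPKM in RFP− libraries (log2 fold change 0.50, SE 0.11, adjusted p = 0.0083). Ndufaf4, an early assembly factor, had 5.13, 3.93 and 4.2 FPKM in RFP+ libraries, against 2.81, 3.01 and 3.26 FPKM in RFP− libraries (0.42, SE 0.10, adjusted p = 0.011). Both were separated between groups and called under every scaling and without each library in turn, at low levels of 68 to 131 reads for Ndufaf6 and 181 to 300 reads for Ndufaf4. Ndufaf8, which works with Ndufaf5 in modifying Ndufs7 in human cells, had 12.6, 14.9 and 15.5 FPKM in RFP+ libraries, against 19.5, 18.3 and 18.1 FPKM in RFP− libraries (−0.36, adjusted p = 0.0083). Sdhaf2, which attaches the flavin of complex II, had 6.81, 6.9 and 6.66 FPKM in RFP+ libraries, against 8.16, 7.93 and 8.08 FPKM in RFP− libraries (−0.22, adjusted p = 0.015), with 94 exonic bases shared with Cpsf7 on the opposite strand. These lower assembly factors did not overlap between groups, unlike Ndufaf7, another complex I assembly factor, whose groups overlapped at an adjusted p of 0.04.

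In the wholly nuclear complex II, succinate dehydrogenase, 1 of 4 subunits fell (25%) and none rose, against 21.6% and 16.4% of all genes. With equal library totals 1 was higher, where 34% of all genes were. Sdha, the flavoprotein, had 51.8, 53.8 and 55.2 FPKM in RFP+ libraries, against 56.5, 50.8 and 51.1 FPKM in RFP− libraries. Sdhb, the iron-sulfur subunit, had 18.8, 22.4 and 23.4 FPKM in RFP+ libraries, against 26.9, 19.7 and 21.4 FPKM in RFP− libraries. For both catalytic subunits the groups overlapped and the test was not passed. Sdhc, a membrane anchor, had 21.2, 20.8 and 20.5 FPKM in RFP+ libraries, against 22.6, 21.5 and 22.5 FPKM in RFP− libraries, again not past the threshold. Sdhd, the other anchor, had 49.6, 45.8 and 48.7 FPKM in RFP+ libraries, against 63.2, 56.4 and 51.7 FPKM in RFP− libraries (−0.24, adjusted p = 0.037). The Sdhd call was made under none of the 3 other scalings.

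All 8 nuclear subunits of complex III, cytochrome bc1, lay below the median gene under each scaling. Of these 1 was called lower as deposited (12.5%, against 21.6% of all genes). The median was −0.15 as deposited and 0.01 with equal library totals, and −0.12 and −0.11 relative to the median gene. Uqcr11, a small subunit, was the call (−0.28, adjusted p = 0.044), and its groups overlapped. In complex V 4 of 17 subunits fell (23.5%) and none rose, against 21.6% and 16.4% of all genes. Its median was −0.14 as deposited and 0.00 with equal totals, where 4 were higher and 1 lower. With equal totals 34% of all genes were higher and 12.1% lower. Atp5k, subunit e of the membrane part, had 26.2, 25.5 and 20.2 FPKM in RFP+ libraries, against 34.1, 35.2 and 30.2 FPKM in RFP− libraries (−0.46, SE 0.10, adjusted p = 0.0094). It alone of the lower complex V genes was called in all 14 alternatives. Atp5j, the stalk subunit called coupling factor 6, had 19, 19.4 and 18.9 FPKM in RFP+ libraries, against 25.7, 23 and 20.8 FPKM in RFP− libraries (−0.26, adjusted p = 0.028), and 397 of its exonic bases overlap Gabpa on the opposite strand. Atp5e, the epsilon subunit of the rotor, had 50.7, 52.1 and 56.5 FPKM in RFP+ libraries, against 73.2, 65.7 and 57.8 FPKM in RFP− libraries (−0.29, adjusted p = 0.029). Atp5mpl, a small membrane subunit, had 23.5, 24.1 and 23.3 FPKM in RFP+ libraries, against 32.4, 28.5 and 25.7 FPKM in RFP− libraries (−0.27, adjusted p = 0.03). In each of these 3 genes RFP− replicate 1 was the highest library and RFP− replicate 3 was the nearest to the RFP+ libraries.

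Of the 5 tested subunits of F1, the catalytic part of ATP synthase, Atp5e was lower, as given above, and the others did not pass the test. Those others, Atp5a1, Atp5b, Atp5c1 and Atp5d, had log2 fold changes between −0.07 and 0.06. The ring that turns in the membrane is made of 1 protein encoded by 3 genes, which differed in level. Atp5g1 had 7.37, 6.43 and 6.98 FPKM in RFP+ libraries, against 7.85, 7.82 and 7.49 FPKM in RFP− libraries, a separation that did not reach the threshold. Atp5g2 had 54, 56.1 and 48.2 FPKM in RFP+ libraries, against 49.4, 48.6 and 45.9 FPKM in RFP− libraries, and Atp5g3 had 51.2, 49.4 and 54.2 FPKM in RFP+ libraries, against 64.4, 60.4 and 53.9 FPKM in RFP− libraries (−0.20, adjusted p = 0.059). The last 2 genes overlapped between groups.

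The mitochondrially encoded genes formed the other side of the comparison. Summed, they made up 3.48, 3.38 and 3.54% of the FPKM total in RFP+ libraries, against 2.53, 2.62 and 2.55% in RFP− libraries, whereas nuclear members made up 1.39, 1.39 and 1.4% in RFP+ libraries, against 1.41, 1.38 and 1.29% in RFP− libraries. The mitochondrial shares did not overlap between groups and the nuclear ones did. Of the 6 that rose, 5 encode subunits of the membrane arm of complex I and 1 encodes cytochrome b. Cytochrome b (mt-Cytb), the core of complex III, had 1371, 1278 and 1373 FPKM in RFP+ libraries, against 1108, 1135 and 1032 FPKM in RFP− libraries (log2 fold change 0.30, SE 0.07, adjusted p = 0.013). The complex I gene mt-Nd4 had 532, 489 and 549 FPKM in RFP+ libraries, against 419, 402 and 366 FPKM in RFP− libraries (0.40, SE 0.07, adjusted p = 0.0038). For both genes the lowest RFP+ library stood above the highest RFP− library. For mt-Nd5 the values were 507, 516 and 582 FPKM in RFP+ libraries, against 430, 369 and 380 FPKM in RFP− libraries (0.44, SE 0.08, adjusted p = 0.004). Its neighbour mt-Nd6, on the other strand of the mitochondrial genome, had 445, 469 and 509 FPKM in RFP+ libraries, against 403, 345 and 345 FPKM in RFP− libraries (0.38, SE 0.08, adjusted p = 0.0082), and the pair share 14 exonic bases. The groups were separate for these 2 genes as well. The mt-Nd1 gene had 1042, 929 and 1097 FPKM in RFP+ libraries, against 897, 844 and 746 FPKM in RFP− libraries (0.30, adjusted p = 0.035), and mt-Nd2 had 657, 625 and 707 FPKM in RFP+ libraries, against 577, 499 and 519 FPKM in RFP− libraries (0.32, adjusted p = 0.014). The calls of mt-Nd4 and mt-Nd5 were made in all 14 alternatives, that of mt-Nd1 in 2 of the 6 fits that each left out 1 library, and all adjusted p-values are limma's.

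The catalytic subunit of complex IV, mt-Co1, was the most abundant member and stood just short of the threshold. It had 3705, 3699 and 3659 FPKM in RFP+ libraries, against 3111, 3303 and 3242 FPKM in RFP− libraries, without overlap (0.20, limma adjusted p = 0.08). The other 5 mitochondrially encoded genes in this table were at levels of 4.07 to 24.2 FPKM, far below the 345 to 3705 FPKM of the rest, and none of them passed. The mt-Co3 gene, of complex IV, had 11, 11 and 9.44 FPKM in RFP+ libraries, against 9.42, 9.26 and 7.57 FPKM in RFP− libraries (0.24, adjusted p = 0.081). Of the others, mt-Co2 of complex IV had 19.9, 24.2 and 21.8 FPKM in RFP+ libraries, against 23.3, 19.7 and 17.9 FPKM in RFP− libraries, and mt-Atp6 of ATP synthase had 14.5, 13.9 and 13.7 FPKM in RFP+ libraries, against 12.1, 14.5 and 9.81 FPKM in RFP− libraries. Both overlapped between groups, as did mt-Nd4l. The complex I gene mt-Nd3 varied between libraries, with 8.63, 9.29 and 17.7 FPKM in RFP+ libraries, against 10.4, 6.72 and 4.63 FPKM in RFP− libraries (0.63, SE 0.30). The nuclear genome holds a copy: GENCODE lists 7 unprocessed pseudogenes in a row at chr1:24611535-24616197 (GRCm38, minus strand), which by order and length copy the mitochondrial stretch that runs from within mt-Co1 to within mt-Nd4. The genes wholly inside that stretch are mt-Co2, mt-Co3, mt-Atp6, mt-Atp8, mt-Nd3 and mt-Nd4l, while mt-Co1 and mt-Nd4 are copied in part. How reads that match both places were counted is not given in the sources used here, and the part of the copy in these levels was not tested.

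**Figure D4:**
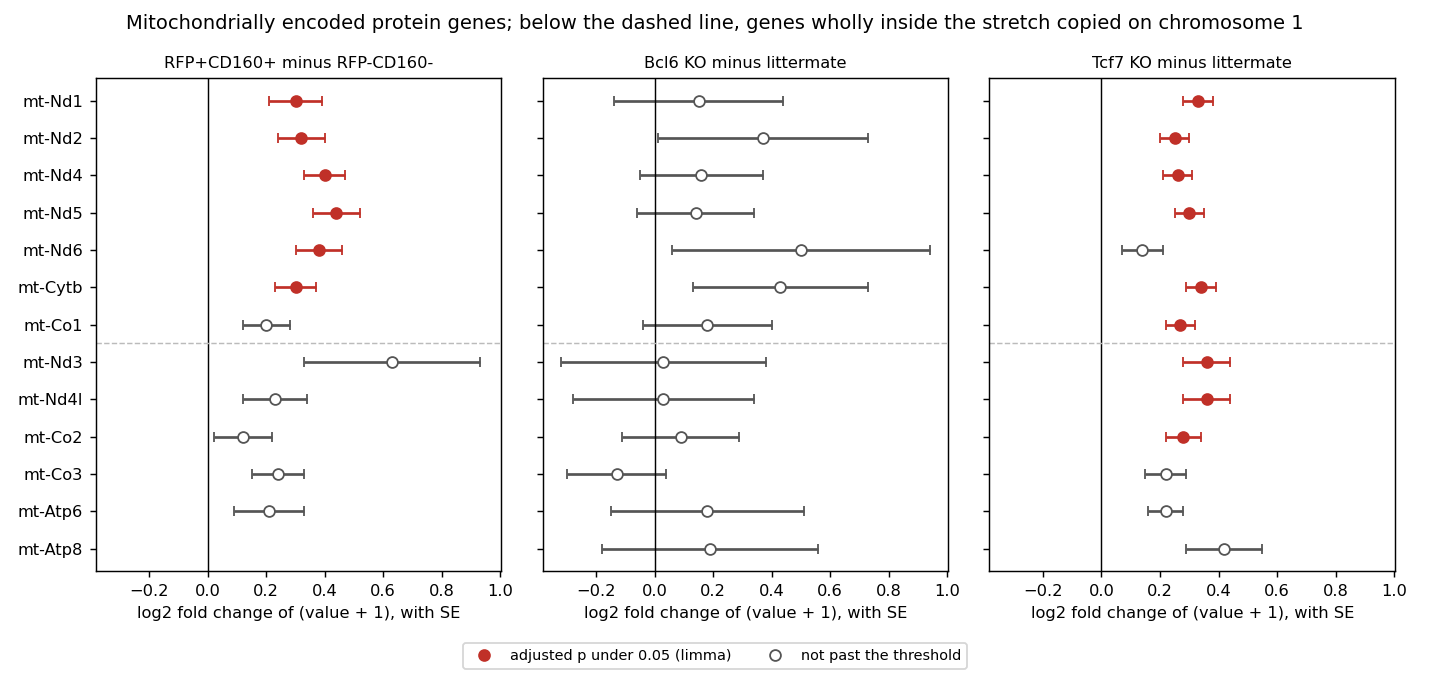
Log2 fold change of (value + 1) with its SE for each mitochondrially encoded gene, as RFP+CD160+ minus RFP-CD160- cells and as KO minus littermate for Bcl6 and Tcf7; filled points passed an adjusted p of 0.05 (limma), and genes below the dashed line lie wholly inside the stretch copied on chromosome 1, of which mt-Co1 and mt-Nd4 hold the ends. In sorted cells and Tcf7 KO every point lies above 0, while in Bcl6 KO the SEs are wide and no gene passed. With quantile normalization, not drawn here, mt-Co1 in Tcf7 KO was at −0.00. That scaling gives any gene of unchanged rank a difference of 0, and the rank of mt-Co1 was not examined.

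Other measures also differed between the sorted populations. Of 11 stress and immediate-early genes, such as Hspa1a and Fos, 10 were higher in RFP+ cells and none lower, with a median log2 fold change of 1.40. The 16 epithelial markers summed to 113 to 157 FPKM in RFP+ libraries, against 121 to 352 FPKM in RFP− libraries, with 1 marker at 0 in each RFP+ library and none at 0 in RFP− libraries. In the test, 1 of 10 epithelial markers was higher and 2 were lower, 2 of 2 myeloid markers and 1 of 3 stromal, endothelial and erythroid markers were lower, and 4 of 6 T cell markers were lower and none higher. Their part in the values of the members was not tested.

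Genes around the chain were read from lists given by function, and each list's counts are as deposited, where 16.4% of all genes were higher and 21.6% lower, and then with equal library totals, where 34% were higher and 12.1% lower. Electron carriers and ATP export had 3 of 16 higher and 5 lower (median −0.10), and 5 higher and 2 lower with equal totals. The lower genes as deposited included Gpd2, the mitochondrial glycerol phosphate dehydrogenase that feeds electrons to ubiquinone, with 11.4, 12.2 and 9.5 FPKM in RFP+ libraries, against 21, 23.1 and 23.3 FPKM in RFP− libraries (−0.97, SE 0.09, adjusted p = 1.1e-04). Etfb, of the flavoprotein that brings electrons from fatty acid oxidation, had 5.22, 5.2 and 4.98 FPKM in RFP+ libraries, against 9.57, 7.73 and 9.89 FPKM in RFP− libraries (−0.71). Neither gene overlapped between groups, and both bring electrons in from outside complexes I and II. Mitochondrial DNA maintenance had 3 of 24 higher (12.5%) and none lower (median 0.09), a share of higher calls below the background, and 9 higher (37.5%) and none lower with equal totals. Polg2, the accessory subunit of the mitochondrial DNA polymerase, had 10.9, 11.5 and 11.3 FPKM in RFP+ libraries, against 6.59, 7.16 and 7.71 FPKM in RFP− libraries (0.59, SE 0.07, adjusted p = 2.9e-04). Its catalytic partner Polg was higher by 0.55 (adjusted p = 0.0033) and Lrpprc, which stabilises mitochondrial mRNA, by 0.32, while Tfam, which packages the DNA, was at −0.09 and not past the threshold (limma).

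Among nuclear regulators 4 of 13 were higher and 1 lower, and 7 higher and none lower with equal totals. Myc, a transcription factor that raises many mitochondrial genes, had 57, 51.6 and 42.8 FPKM in RFP+ libraries, against 11.3, 16 and 14.9 FPKM in RFP− libraries (log2 fold change 1.78, SE 0.14, adjusted p = 4.0e-05), and Gabpa, which binds the ETS core, was at −0.18 (adjusted p = 0.026). Every RFP+ library was above every RFP− library for Myc. The mitochondrial ribosome had 7 of 77 higher and 9 lower (median −0.06), and 22 higher and 3 lower with equal totals. Further assembly factors had 1 of 33 higher and 9 lower (median −0.02), and 6 higher and 1 lower with equal totals. Lyrm2, which helps to assemble complex I in human cells, had 3.98, 3.56 and 2.65 FPKM in RFP+ libraries, against 0.266, 1.37 and 1.11 FPKM in RFP− libraries (1.24, SE 0.23, adjusted p = 0.0041). In coenzyme Q synthesis none of 11 was higher and 2 were lower (median 0.04), against 3 higher and 1 lower with equal totals, and the lower genes as deposited included Coq8b at −0.74 (limma adjusted p = 3.2e-04).

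In Prdm1 KO IELs, set against littermates, no member passed the test. Prdm1 encodes BLIMP1, a transcriptional repressor. Of 89 members tested 0 were higher and 0 lower in limma, and 2 had an unadjusted p under 0.05 (1 higher and 1 lower). Among all 10969 genes tested 2260 had such a p, 1177 of them higher. With edgeR on the recovered reads 0 members were called as well, and with DESeq2 1. Limma with the replicate number as a block also called 1, and deviations of same-numbered libraries correlated at 0.53. Over all 10969 genes 4.29% were called higher and 2.54% lower. The median log2 fold change, KO minus littermate, was −0.03 for members and −0.04 for all genes. Values here are reads divided by a size factor (signal), not per length, so they compare libraries and not genes.

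Cox7a2 had the most positive difference of the members tested. It had a signal of 480 and 565 in Prdm1 KO libraries, against 281 and 354 in littermate libraries. The KO libraries were both above the littermates, with a log2 fold change of 0.72 (SE 0.18) and a limma adjusted p of 0.07, just short of the threshold. The value was 0.89 with an adjusted p of 0.016 without littermate replicate 2, and the adjusted p was 0.0031 with the replicate number as a block, 0.065 in edgeR (0.76) and 0.014 in DESeq2 (0.75), where Cox7a2 was the 1 call. Over those alternatives the adjusted p ran up to 0.27, without KO replicate 2. These values rest on 272 to 544 reads per library. Cox6a2 did not follow: it had a signal of 540 and 659 in Prdm1 KO and 612 and 524 in littermate libraries (0.08), and the groups overlapped.

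Among members with a mean signal of at least 250, 3 complex I subunits gave the most negative values in Prdm1 KO. Ndufb8, of the membrane arm, had a signal of 574 and 549 in KO libraries and 712 and 688 in littermate libraries (−0.32, SE 0.13, limma adjusted p = 0.22). Ndufb7, of the same arm, had 358 and 471 in KO libraries and 458 and 557 in littermate libraries (−0.30), and Ndufb11, also of that arm, had 414 and 504 in KO libraries and 563 and 532 in littermate libraries (−0.26, adjusted p = 0.4). Ndufb8 and Ndufb11 were separated between groups, and Ndufb7 was not. The next positive values after Cox7a2 in that range were those of Sdhaf1 and Atp5b. Sdhaf1, a complex II assembly factor, had a signal of 605 and 596 in KO libraries and 518 and 568 in littermate libraries (0.15). Atp5b, the catalytic beta subunit of ATP synthase, had 10380 and 11000 in KO libraries and 9222 and 10530 in littermate libraries (0.12). Of the complex II subunits Sdha had 8161 and 8341 in KO libraries and 8177 and 8132 in littermate libraries. Sdhb had 1565 and 1483 in KO libraries and 1288 and 1580 in littermate libraries, Sdhc had 2066 and 2287 in KO and 2019 and 2528 in littermate libraries, and Sdhd had 1842 and 1951 in KO and 1977 and 1995 in littermate libraries. None of these 4 passed the test.

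Of the surrounding lists, electron carriers had 0 of 16 higher and 1 lower and regulators 1 of 13 higher and 0 lower. Gpd2 fell, with a signal of 4095 and 3711 in Prdm1 KO libraries, against 5731 and 5278 in littermate libraries (−0.50, SE 0.10, limma adjusted p = 0.037). Myc rose, with 5690 and 5472 in KO libraries, against 2850 and 3669 in littermate libraries (0.79, SE 0.13, adjusted p = 0.02). Neither gene overlapped between groups. The lists of mitochondrial ribosome, mitochondrial DNA maintenance, coenzyme Q synthesis and further assembly factors had no call. Epithelial markers were higher in 8 of 15, Krt8 for instance with 929 and 1094 in KO libraries, against 250 and 199 in littermate libraries, and 3 of 10 stress genes were higher. Of 3 myeloid markers 1 was lower, and the 6 T cell and 4 stromal, endothelial and erythroid markers had no call. The epithelial markers summed to 20522 and 28572 in KO libraries and 16412 and 16515 in littermate libraries, with none at 0, and their part in the members' values was not tested.

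Tcf7 encodes the transcription factor TCF1, and its transcript had a signal of 7757 and 7993 in Tcf7 KO libraries, against 15430 and 15610 in littermate libraries, so part of it was still measured. In the IELs labelled Tcf7 KO, set against littermates, mitochondrially encoded genes were higher and no nuclear member passed the test. Of 119 members tested 9 were higher (7.56%) and 0 lower, against 1.49% of 15210 genes called higher and 1.23% lower, and all 9 were mitochondrially encoded. Of 106 nuclear members limma called 0, and 6 had an unadjusted p under 0.05 (4 higher). Among all 15210 genes tested 1909 had such a p, 940 of them higher. No count test was run here, because a separate check of whole reads did not pass for 1 KO library. The median log2 fold change, KO minus littermate, was 0.28 for the 13 mitochondrially encoded genes, 0.04 for nuclear members and 0.00 for all genes. The calls rest on the spread that limma estimates from genes of like level: without that trend 0 members were called, and 6 genes were higher and 3 lower over all genes. Leaving out 1 KO library lowered the number of calls, and leaving out 1 littermate library raised it, among members and over all genes alike. The mitochondrially encoded median was 0.28 without KO replicate 1 and 0.28 without KO replicate 2. It was 0.30 without littermate replicate 1 and 0.25 without littermate replicate 2.

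Each of the 13 mitochondrially encoded genes had both Tcf7 KO libraries above both littermate libraries. The share of all genes separated in this way was not counted, and the 13 genes were read in the same libraries. By sign alone, 7683 of all 15210 genes tested lay above 0 and 7527 below it. The mt-Cytb gene had a signal of 95740 and 95120 in KO libraries, against 76910 and 73900 in littermate libraries (log2 fold change 0.34, SE 0.05, limma adjusted p = 9.0e-04). The mt-Nd1 gene had 50760 and 49610 in KO libraries, against 40960 and 38950 in littermate libraries (0.33, adjusted p = 0.0012). These 2 were called whichever library was left out. Among other complex I genes mt-Nd5 had 54050 and 56130 in KO libraries, against 43410 and 45920 in littermate libraries (0.30, adjusted p = 0.0029), and mt-Nd4 had 65170 and 64460 in KO libraries, against 54350 and 53580 in littermate libraries (0.26, adjusted p = 0.0049). The mt-Nd2 gene had 35270 and 33790 in KO libraries, against 29560 and 28570 in littermate libraries (0.25, adjusted p = 0.01). For each of these complex I genes the gap between groups was wider than the spread within either group. For mt-Nd3 the signal was 1944 and 1919 in KO libraries, against 1579 and 1440 in littermate libraries (0.36, adjusted p = 0.025), and for mt-Nd4l 3891 and 4108 in KO libraries, against 2870 and 3399 in littermate libraries (0.36, adjusted p = 0.024).

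Complex IV genes rose as well. The mt-Co1 gene had a signal of 391600 and 393600 in Tcf7 KO libraries, against 336100 and 313500 in littermate libraries (0.27, limma adjusted p = 0.014), though with quantile normalization it was at −0.00. Quantile normalization gives genes of the same rank the same value in every library, and the rank of mt-Co1 was not examined. The mt-Co2 gene had 57650 and 53740 in KO libraries, against 48030 and 43620 in littermate libraries (0.28, adjusted p = 0.014). The third subunit of that core, mt-Co3, had 49900 and 46600 in KO libraries and 45530 and 37520 in littermate libraries, not past the threshold (0.22, adjusted p = 0.17). The ATP synthase genes also stayed short of it. Signal of mt-Atp6 was 61730 and 57350 in KO libraries and 53490 and 48460 in littermate libraries (0.22, adjusted p = 0.056), and that of mt-Atp8 was 767 and 691 in KO libraries and 480 and 613 in littermate libraries (0.42, SE 0.13, adjusted p = 0.16). The mt-Nd6 gene differed least, at 9134 and 9053 in KO libraries and 8940 and 7623 in littermate libraries (0.14, adjusted p = 0.42). As a share of all signal, the 13 genes made 1.93 and 1.9% in KO libraries and 1.64 and 1.54% in littermate libraries.

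Other values moved with this difference. The Tcf7 table lists 2 of the chromosome 1 pseudogenes, and both rose: Gm10925 had a signal of 83701 and 77684 in KO libraries, against 71292 and 67086 in littermate libraries (0.22, SE 0.05, limma adjusted p = 0.042), and Gm10222 had 8103 and 8788 in KO libraries, against 6152 and 7185 in littermate libraries (0.34, SE 0.07, adjusted p = 0.016). The 16 epithelial markers summed to 34179 and 33360 in KO libraries and 27536 and 27082 in littermate libraries, with 4 of 15 called higher, 0 lower and none at 0. The haemoglobin genes Hbb-bs (1.05) and Hba-a1 (0.92) were higher too, of 10 stress genes 1 was higher and 3 lower, and of 3 myeloid markers 1 was higher, with no call among 6 T cell markers. The granzyme share was 1.68 and 1.6% of signal in KO libraries and 1.19 and 1.11% in littermate libraries. The part of each in the mitochondrial values was not tested.

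Nuclear members in Tcf7 KO stayed near 0, and the pair of complex IV genes seen in sorted cells gave the most negative values. Cox6a2 had a signal of 449 and 444 in KO libraries and 604 and 633 in littermate libraries, without overlap (−0.47, SE 0.12, limma adjusted p = 0.066). Cox7a2 had 303 and 251 in KO libraries and 372 and 357 in littermate libraries, also without overlap (−0.40, SE 0.16, adjusted p = 0.31). Neither gene passed the threshold. Sdha had a signal of 12030 and 12080 in KO libraries and 11770 and 11740 in littermate libraries, Sdhb had 2058 and 2153 in KO and 2097 and 2011 in littermate libraries, Sdhc had 3283 and 3209 in KO and 3261 and 3094 in littermate libraries, and Sdhd had 2656 and 2543 in KO and 2645 and 2443 in littermate libraries. Complex II had log2 fold changes of 0.03 to 0.04. Of the surrounding lists 1 gene was called: Polg, the mitochondrial DNA polymerase, fell, with a signal of 1054 and 981 in KO libraries, against 1427 and 1513 in littermate libraries (−0.53, SE 0.09, adjusted p = 0.0035). The 11 members with a pseudogene symbol and the 5 gene copies tested in this table had no call.

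In Bcl6 KO IELs, set against littermates, no member passed the test, and the 2 KO libraries differed from each other in the mitochondrially encoded genes. Limma called 0 of 105 members, with 4 at an unadjusted p under 0.05, all of them higher and nuclear. Among all 9573 genes tested 559 had such a p, 229 of them higher. Over all 9573 genes 0.0313% were called higher and 0.387% lower. The median log2 fold change, KO minus littermate, was 0.12 for nuclear members, 0.16 for mitochondrially encoded genes and 0.03 for all genes, and 85 of 105 members lay above 0, as did 5302 of all 9573 genes. These medians moved with single libraries: the nuclear one was 0.04 without KO replicate 1 and 0.19 without KO replicate 2, and the mitochondrial one was 0.55 without KO replicate 1, −0.09 without KO replicate 2, 0.38 without littermate replicate 1 and −0.08 without littermate replicate 2. Complex I had 35 of 37 nuclear subunits above 0 and complex III 8 of 8. Those 37 include Ndufb4c, a gene copy listed by GENCODE as a processed pseudogene, at 6 to 13 reads per library. Ndufb4c was also 1 of the 4 members with an unadjusted p under 0.05 (0.44, limma adjusted p = 0.86). Ndufaf8 had 53.4 and 53.8 FPKM in KO libraries and 40.4 and 38.9 FPKM in littermate libraries (0.43, SE 0.15, adjusted p = 0.72), and Ndufb8 had 36.9 and 38.1 FPKM in KO libraries and 27.2 and 28.6 FPKM in littermate libraries (0.41, SE 0.16, adjusted p = 0.75). Uqcr11 had 155 and 122 FPKM in KO libraries and 94.3 and 109 FPKM in littermate libraries (0.43, SE 0.18, adjusted p = 0.83). All 3 were separated between the groups and none reached the threshold. Ndufaf8 and Ndufb8 were named for their unadjusted p after their values were seen.

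KO replicate 2 stood apart in the mitochondrially encoded genes. These summed to 4849 and 8396 FPKM in Bcl6 KO libraries and 5902 and 4731 FPKM in littermate libraries. The mt-Cytb gene had 1718 and 3428 FPKM in KO libraries and 1939 and 1672 FPKM in littermate libraries (0.43, adjusted p = 0.95), and mt-Nd6 had 44.1 and 130 FPKM in KO libraries and 70.9 and 40.2 FPKM in littermate libraries (0.50, SE 0.44). In each the first KO library lay within the range of the littermates and the second above it. KO replicate 2 was also the highest library for mt-Nd1, with 959 and 1721 FPKM in KO libraries and 1357 and 994 FPKM in littermate libraries, and for mt-Nd2, with 112 and 259 FPKM in KO libraries and 167 and 104 FPKM in littermate libraries. For mt-Co1 the values were 1399 and 1992 FPKM in KO libraries and 1610 and 1343 FPKM in littermate libraries, whereas mt-Co3 showed no such step, with 34.4 and 32.7 FPKM in KO libraries and 40.1 and 33.7 FPKM in littermate libraries. Without KO replicate 2 the fold changes were −0.07 for mt-Cytb and −0.27 for mt-Nd6. Without KO replicate 1 the median log2 fold change was 0.55 for mitochondrially encoded genes, against 0.04 for nuclear members and 0.01 for all genes. Without KO replicate 2 those medians were −0.09, 0.19 and 0.04. Each of these fits holds only 1 KO library. Atp5d, the delta subunit of ATP synthase, had 128 and 73.6 FPKM in KO libraries and 111 and 129 FPKM in littermate libraries (−0.30), Atp5b had 220 and 152 FPKM in KO libraries and 215 and 230 FPKM in littermate libraries (−0.28), and Cox5b-ps had 23.1 and 13.8 FPKM in KO libraries and 22.7 and 19.4 FPKM in littermate libraries (−0.22). In these lower genes too the difference was in KO replicate 2, and without it Atp5d was at 0.10 and Cox5b-ps at 0.13. Of 11 stress genes 8 were lower in Bcl6 KO and none higher, of 15 epithelial markers 2 were lower, and T cell, myeloid and stromal markers had no call. Epithelial markers summed to 285 and 253 FPKM in KO libraries and 384 and 404 FPKM in littermate libraries, with none at 0. Their part in these values was not tested.

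Cox7a2 had 146 and 113 FPKM in Bcl6 KO libraries and 128 and 128 FPKM in littermate libraries, with a log2 fold change of 0.01 (SE 0.18). Cox6a2 was at 0.979 and 1.81 FPKM in KO libraries and 0.767 and 0.997 FPKM in littermate libraries, too low to be tested. Cox7a2 thus did not differ beyond the spread between libraries in this experiment, and for Cox6a2 no difference was tested. Sdhb had 88.3 and 87.4 FPKM in KO libraries and 71.5 and 69.9 FPKM in littermate libraries (0.31, limma adjusted p = 0.9), and Sdhd had 145 and 143 FPKM in KO libraries and 122 and 129 FPKM in littermate libraries (0.20), while Sdha and Sdhc overlapped between groups. The lists of electron carriers, assembly factors, coenzyme Q synthesis, mitochondrial DNA maintenance, mitochondrial ribosome and regulators had no call in limma.

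**Figure D5:**
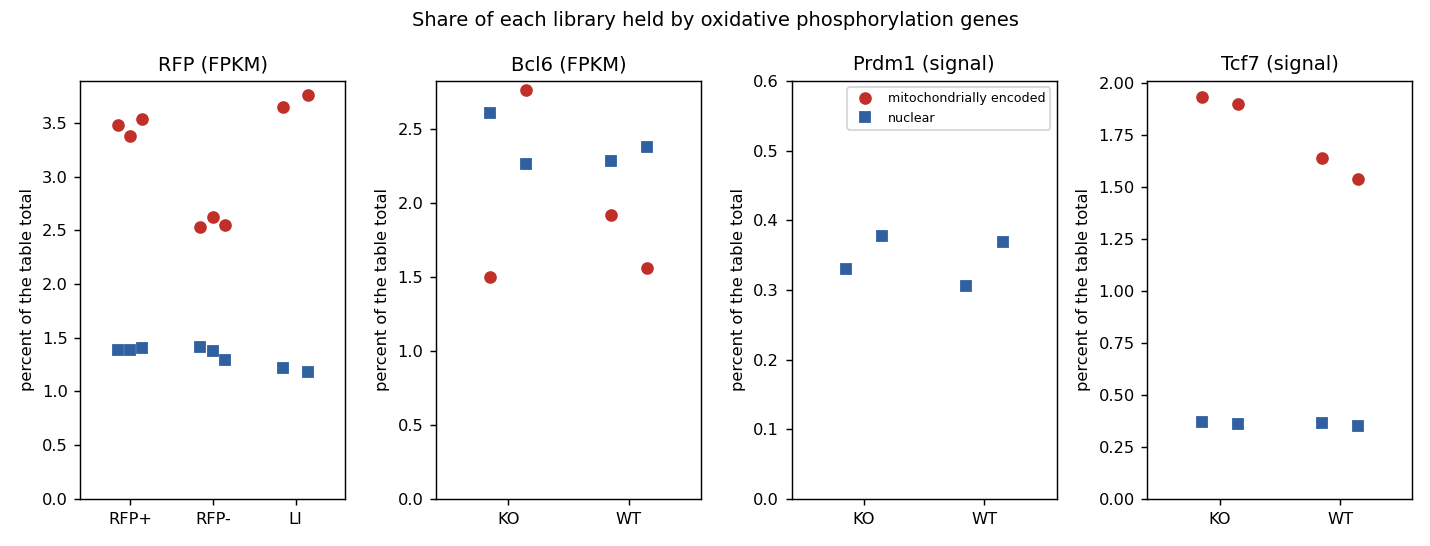
Share of each library's total value taken by mitochondrially encoded genes and by nuclear members, in percent, for every library, LI included; the Prdm1 table holds no mitochondrially encoded gene. For mitochondrially encoded genes, RFP+ libraries lie at 3.38 to 3.54% against 2.53 to 2.62% for RFP- libraries, Tcf7 KO at 1.93 and 1.9% against 1.64 and 1.54% for littermates, and Bcl6 KO replicate 2 at 2.76% above the other 3 libraries of its experiment.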

How the data were processed

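TCRαβ+CD8αα+ IELs were sorted, RNA was extracted with MagZol and libraries were sequenced by BGI Genomics or Novogene, per the labels' protocols, which do not say which library went where. Trim Galore 0.4.4, Bowtie2, featureCounts, Subread, RSEM and DESeq2 and the build mm10 are named in the submitters' processing notes, without roles. The deposited FPKM values of the sorted, LI and Bcl6 libraries were read as length-normalized levels, since times GENCODE vM21 exon length and depth 97.0 to 97.8% of low values were whole reads (tolerance 0.02). The deposited values of the Prdm1 and Tcf7 tables, named FPKM by the authors, are read counts divided by 1 size factor per library, here called signal. In every Prdm1 and Tcf7 library 100% of values were whole reads within 0.01. A separate check of this did not pass for 1 Tcf7 KO library, so Tcf7 depths rest on that reading. FPKM had been assumed for them when the tests were set, so the filter was restated in signal.

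Each experiment was fitted alone with limma 3.58.1 (R 4.3.3, eBayes with trend) on log2(value + 1), for genes at or above 1 FPKM or a signal of 50 in at least n libraries, n being the size of the smaller group. Fold changes are on that scale, which understates low genes. P-values are two-sided and adjusted by Benjamini-Hochberg over all genes tested, with a threshold of 0.05. Prdm1 reads were also tested with edgeR 4.0.16 and DESeq2 1.42.0. Python 3.11.15 (numpy 2.4.6, pandas 2.3.3, matplotlib 3.10.9) was used for levels and figures. Of 124 members 113 matched GENCODE vM21 by symbol. The fits were tested on simulated data. Alternatives were another pseudocount (0.1), no filter, a stricter filter (5 FPKM or a signal of 250), library totals made equal, quantile normalization, centring on genes above 10 FPKM or a signal of 500, no trend, the replicate number as a block, and leaving out each library.

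Members, lists and tests were chosen with earlier results of these data known. Named genes were the called members whose groups did not overlap, up to 30 by p, and, where under 5 were called, the 3 most positive and 3 most negative members averaging 5 FPKM or more, or a signal of 250. Mitochondrially encoded genes, complex II and isoform families were given by level. Ndufs7, Sdhd, Cox8a, Ndufaf7 and Uqcr11 in sorted cells, the values of Cox7a2 and Cox6a2 in the KO experiments and genes of the surrounding lists were named after their values were seen. The replicate numbers do not pair samples by any label. The LI libraries were in no group and entered no test.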

Additional observations from a re-analysis of the deposited data

How the results depend on the processing

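In sorted cells the counts were 31 members higher and 7 lower (11 mitochondrially encoded) with library totals made equal. They were 17 higher and 19 lower (8) after centring, and 11 higher and 21 lower with the replicate number as a block. Over all 9717 genes the counts in those settings were 3300 and 1171, 2200 and 1595, and 1297 and 1695. Same-numbered libraries did not deviate together. Deviations correlated at 0.49 between RFP+ replicate 3 and RFP− replicate 1, 0.36 between RFP+ 1 and RFP− 2, and 0.43 between RFP+ 2 and RFP− 3. Every other pair was at −0.00 or below, and a block by those crossed pairs was not run. Leaving out 1 library gave 7 to 12 higher, 13 to 30 lower and 4 to 7 mitochondrially encoded. Over all genes these fits gave 1175 to 1536 higher and 1531 to 1959 lower. In all 14 alternatives 3 of 10 higher calls were made (Cox7a2, mt-Nd4, mt-Nd5) and 7 of 25 lower calls. In Bcl6 KO, without KO replicate 2 the values were −0.27 for mt-Nd6, −0.07 for mt-Cytb, 0.10 for Atp5d and 0.13 for Cox5b-ps. Without KO replicate 1 they were 1.26, 0.93, −0.69 and −0.57. The replicate block gave no member call, and a crossed block, added after seeing a same-number correlation of −0.46, gave 2 higher (1 mitochondrially encoded). In Prdm1 KO, where deviations of same-numbered libraries correlated at 0.53, the block gave 1 call, and DESeq2 gave 1. In Tcf7 KO no trend gave 0, and the block gave 13 higher and 1 lower. Leaving out 1 library changed the number of calls, among members and over all genes alike. Quantile normalization put mt-Co1 at −0.00, and its rank was not examined. Over all genes the block gave 1210 higher and 1176 lower in Prdm1 KO and 495 and 482 in Tcf7 KO. In Bcl6 KO the block gave 14 and 64 and the crossed block 180 and 272. In Prdm1 KO edgeR gave 527 and 245, and DESeq2 778 and 406. Of the named members' values under alternatives, 357 kept direction and side of the threshold in sorted cells and 61 fell short of it; in Bcl6 KO 67 kept both, 7 passed it and 4 reversed, in Prdm1 KO 81 and 3 passed it, and in Tcf7 KO 88, with 19 short of it and 1 reversed. The cause was not tested. Count tests were not run for Tcf7, where a separate check of whole reads did not pass for 1 KO library. Where 1 library was left in a group, it is assumed to vary like the other group.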

Other observations

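The LI pair, from Bcl6-RFP/RFP mice and labelled small intestine, was put in no group, so each library's value is given without a test. Mitochondrially encoded genes made up 3.65 and 3.76% of their FPKM totals and nuclear members 1.22 and 1.18%. Both LI libraries lay below all 6 sorted libraries in 52 of 93 nuclear members (55.9%), against 21.2% of 9717 genes, and above all 6 in 1 (1.08%), against 20.9% of genes. The 1 above was Atp5a1, the alpha subunit of ATP synthase, at 163 and 162 FPKM. Of 12 mitochondrially encoded genes 3 were above all 6 sorted libraries: mt-Co1 at 4017 and 4067 FPKM, mt-Nd5 at 673 and 722 FPKM and mt-Nd6 at 528 and 535 FPKM.

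Cox7a2 stood at 56.7 and 53 FPKM in the LI libraries, beside the RFP− level, and Cox6a2 at 3.38 and 2.29 FPKM, below every sorted library. Ndufaf4 stood at 4.98 and 5.12 FPKM and Ndufaf6 at 5.26 and 4.82 FPKM, within the range of RFP+ libraries, and Cox6c at 16.9 and 18.1 FPKM, below every sorted library.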
